A study of Mus musculus with 64 samples.

Results

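The comparison described here is the depot by genotype interaction in mean transcript level: the change caused in brown adipose tissue (BAT) by fat-specific loss of *Nampt*, minus the change in epididymal white adipose tissue (eWAT). It used 64 of the 64 RNA-seq samples of the series, 16 each from wild-type (WT) BAT, fat-specific *Nampt* knockout (FANKO) BAT, WT eWAT and FANKO eWAT, with 4 samples at each of zeitgeber times (ZT) 6, 10, 18 and 22 h, where ZT counts hours from lights on. All mice were males aged 2 to 4 months. The strain was the NamptTM1Jtree line, in which loxP sites flank exon 3 of *Nampt*, crossed with Adiponectin-Cre mice. WT mice were littermates without Cre. The Adiponectin promoter drives Cre in adipocytes of both depots, so the other cells of each depot kept *Nampt*, and a whole-depot sample mixes both. The labels do not say which BAT and eWAT samples came from the same mouse, and replicates are labelled only by number, so errors and p-values measure the spread between these samples.

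NAMPT is the rate-limiting enzyme of the salvage pathway that remakes NAD+ from nicotinamide. NAD+ accepts electrons in glycolysis, fatty acid oxidation and the tricarboxylic acid (TCA) cycle, hands them to complex I of the respiratory chain, and is consumed by sirtuins and PARP enzymes. Brown adipocytes are rich in mitochondria and burn fatty acids to make heat, whereas white adipocytes store triglyceride in one large droplet and contain fewer mitochondria. An interaction asks whether the same gene deletion moved a transcript by the same ratio in both tissues.

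For each gene, the log2 fold change of FANKO against WT was estimated in each depot as the mean over the 4 time points, and the interaction is the BAT value minus the eWAT value. A positive interaction thus means that the FANKO to WT ratio was higher in BAT. Errors are standard errors (SE), and genes were called at a false discovery rate (FDR) under 0.01 by edgeR's quasi-likelihood test, which also gave every adjusted p below. A gene changed in opposite directions if it was called in both depots and in the interaction with opposite signs. A gene changed alike if it was called in both depots with the same sign and the 95% interval of its interaction lay within a 1.5-fold difference (0.585 on the log2 scale). Levels are counts scaled to a common library size (CPM) after TMM scaling.

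The deleted gene was checked first. *Nampt* lay between 479 and 1454 CPM in WT BAT (median 702) and between 109 and 186 CPM in FANKO BAT (median 143). The eWAT levels lay between 112 and 309.7 CPM in WT eWAT (median 149) and between 101 and 131 CPM in FANKO eWAT (median 114). The genotypes did not overlap in BAT and overlapped in eWAT, where WT levels were already lower. The log2 fold change was -2.31 ± 0.067 in BAT and -0.50 ± 0.067 in eWAT, and the interaction was -1.82 ± 0.094, adjusted p = 4.93e-24. By time point, the eWAT value was -0.032 and -0.25 at ZT 6 and 10, and -1.11 and -0.59 at ZT 18 and 22, whereas the BAT value ranged from -1.94 to -2.64. These counts cover the whole gene and not only exon 3. In bulk samples, fewer cells of a type and less RNA per cell cannot be told apart.

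Library totals ranged from 6117343 to 30544847 counts with a median of 15826651. The labelled tissues held their markers: summed CPM of 21 brown adipocyte genes was 7230 to 14350 in WT BAT and 530.2 to 752.6 in WT eWAT. *Ucp1*, the uncoupling protein that makes heat in brown adipocytes, had a median of 4306 CPM in WT BAT and 0.213 CPM in WT eWAT. The median share of counts from the mitochondrial genome was 24.6% and 14.7% in WT and FANKO BAT, and 6.55% and 10.7% in WT and FANKO eWAT. Some libraries stood apart by RNA of neighbouring tissue. Skeletal muscle markers summed to 69.85 to 1490 CPM in WT BAT and to 43.63 to 1167 CPM in FANKO BAT, and epididymis markers reached 33.67 CPM in WT eWAT and 394.5 CPM in FANKO eWAT. Without the 12 libraries above 300 CPM of muscle or 40 CPM of epididymis markers, which left the smallest group with 1 sample, 2719 of the 3716 genes that changed in opposite directions and 1036 of the 1427 that changed alike kept their class.

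The interaction was called for 12961 of 20249 genes tested, which is 64% of them. It was positive for 6477 (32%) and negative for 6484 (32%). In BAT, 6734 genes rose (33.3%) and 6844 fell (33.8%), and in eWAT 5571 rose (27.5%) and 4483 fell (22.1%). Both contrasts passed for 7210 genes, and 51.5% of these, 3716 genes, moved in opposite directions. In 2329 of them the transcript fell in BAT and rose in eWAT, 11.5% of the genes tested. In 1387 it rose in BAT and fell in eWAT, 6.85% of the genes tested. Genes that changed alike numbered 1427, of which 728 rose in both depots (3.6%) and 699 fell in both (3.45%). Alike here means a difference within the 1.5-fold bound and not the absence of one. Of the 1427 genes, 363 (25.4%) also had a called interaction. A further 6368 genes passed in BAT only, and 5161 of those also had a called interaction. Of the 2844 genes that passed in eWAT only, 1856 had a called interaction.

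More than 2-fold differences between the depots were common. Of the called interactions, 6719 passed 2-fold, 4429 of them positive and 2290 negative. Changes past 2-fold in each depot were fewer. Of the genes in opposite directions, 277 passed 2-fold in both depots, 68 with a fall in BAT and 209 with a rise in BAT. Of the genes that changed alike, 53 passed 2-fold in both, 32 up and 21 down. The median absolute log2 fold change over all genes tested was 0.547 in BAT and 0.322 in eWAT. Across 12827 genes with a mean of at least 1 on the log2 CPM scale, the BAT and eWAT fold changes had a Pearson r of 0.232 and a Spearman rho of 0.0291, a description over genes, which are not independent replicates. WT and FANKO samples did not overlap in either depot for 435 genes (2.15%).

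**Figure D1:**
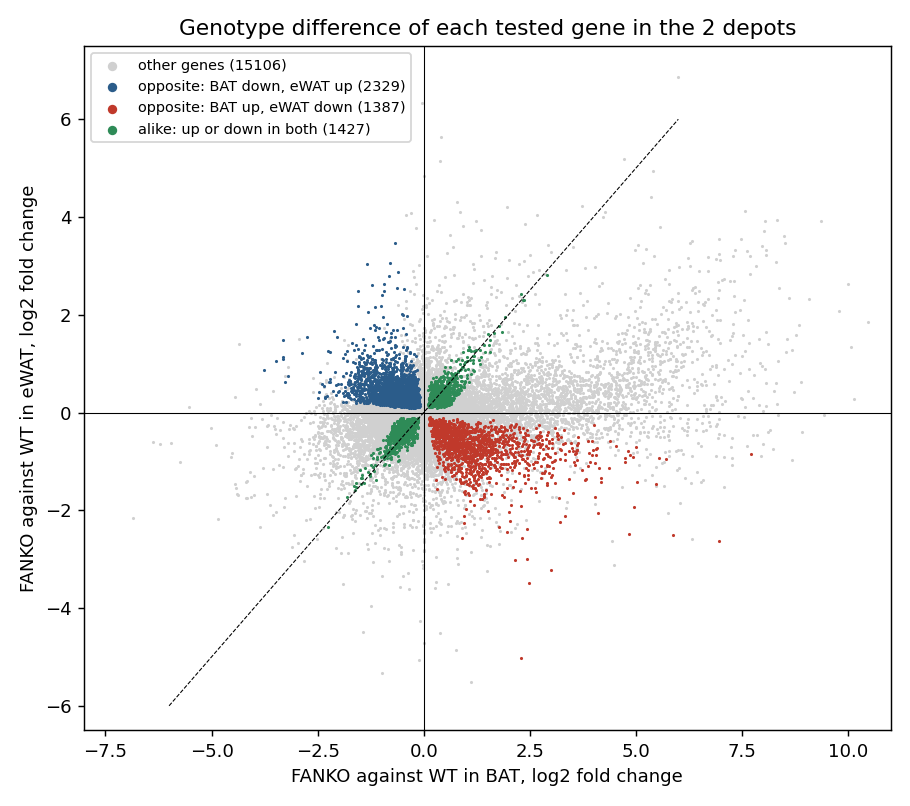
Each point is 1 of 20249 genes tested, with the FANKO against WT log2 fold change in BAT on the x axis and in eWAT on the y axis; the dashed line marks equal change. The 2329 blue genes fell in BAT and rose in eWAT, the 1387 red genes rose in BAT and fell in eWAT, and the 1427 green genes changed alike.

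How many genes rose or fell depends on how libraries are scaled, and the reason for this was not tested. TMM set the median interaction over all genes at 0.048. With library size alone it was 0.882, and 89.7% of called interactions were positive against 50% with TMM. With scaling to 18 adipocyte core genes, an alternative chosen after seeing the data, it was 0.858 and 89.1% were positive. Under these scalings, 48.3% and 19.1% of the genes in opposite directions kept their class, and 7 and 6 of the genes that changed alike. The classes below are relative to the TMM centre, and a list median whose sign turned under these scalings is named with its list.

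Of the genes that fell in BAT and rose in eWAT, the 8 with the largest change in the depot where it was smaller were *Gpd2*, *Acsm3*, *Cpt1b*, *Pdk4*, *Cidea*, *Hadhb*, *Slc25a33* and *Fuom*. *Gpd2*, the mitochondrial glycerol-3-phosphate dehydrogenase that passes cytosolic electrons to the respiratory chain, lay between 1632 and 2333 CPM in WT BAT (median 2064) and between 496 and 916 CPM in FANKO BAT (median 654). In the white depot it lay between 52.5 and 191 CPM in WT eWAT (median 121) and between 386 and 516 CPM in FANKO eWAT (median 448). The genotypes did not overlap in either depot, and the gap between the depots was far narrower in FANKO than in WT mice. The log2 fold change was -1.59 ± 0.096 in BAT and 1.82 ± 0.096 in eWAT, a 3.01-fold fall and a 3.52-fold rise, with an interaction of -3.41 ± 0.14, adjusted p = 3.08e-28.

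*Cpt1b*, the muscle and brown fat isoform of the carnitine palmitoyltransferase that admits long-chain fatty acids to mitochondria, lay between 47.2 and 66.6 CPM in WT BAT (median 57.9) and between 13.5 and 25.1 CPM in FANKO BAT (median 20.5). Samples of eWAT lay between 0.0894 and 0.538 CPM in WT eWAT (median 0.284) and between 0.84 and 3.14 CPM in FANKO eWAT (median 1.88). It was a low transcript in eWAT, yet its 16 FANKO samples all lay above the WT samples. The log2 fold change was -1.55 ± 0.086 in BAT and 2.49 ± 0.19 in eWAT (interaction -4.04 ± 0.21, adjusted p = 4.53e-26). *Hadhb*, the beta subunit of the mitochondrial trifunctional protein of fatty acid oxidation, lay between 1543 and 2215 CPM in WT BAT (median 1739.8) and between 401 and 792 CPM in FANKO BAT (median 532). Levels in eWAT ran between 64.6 and 132 CPM in WT eWAT (median 92.6) and between 202 and 286 CPM in FANKO eWAT (median 229). The genotypes were again apart in both depots, with log2 fold changes of -1.65 ± 0.078 in BAT and 1.28 ± 0.078 in eWAT and an interaction of -2.94 ± 0.11, adjusted p = 2.76e-29.

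*Cidea*, a lipid droplet protein that marks brown fat in mice, had the most negative interaction among the genes that met the naming rule, -4.39 ± 0.20, adjusted p = 6.99e-26. It lay between 1605 and 2362 CPM in WT BAT (median 2094) and between 531 and 1109.7 CPM in FANKO BAT (median 825). Its eWAT range ran between 2.1 and 10.8 CPM in WT eWAT (median 4.13) and between 25.5 and 67.8 CPM in FANKO eWAT (median 40.6), with no overlap between genotypes. *Cidea* was the 1 gene of these 8 that lost its class under an alternative, the adipocyte core scaling. *Acsm3*, a medium-chain acyl-CoA synthetase, changed by -2.75 ± 0.19 in BAT and 1.55 ± 0.18 in eWAT. *Pdk4*, the kinase that inhibits pyruvate dehydrogenase, changed by -1.60 ± 0.17 in BAT and 1.38 ± 0.18 in eWAT, with overlapping genotypes in both depots. *Slc25a33*, a mitochondrial pyrimidine nucleotide carrier, changed by -1.41 ± 0.078 in BAT and 1.27 ± 0.081 in eWAT, and *Fuom*, a fucose mutarotase, by -1.81 ± 0.071 in BAT and 1.25 ± 0.075 in eWAT. *Chchd10*, a small protein of the mitochondrial intermembrane space, was among the 3 most negative interactions and was set apart by its eWAT rise, 3.46 ± 0.10, against -0.67 ± 0.098 in BAT.

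**Figure D2:**
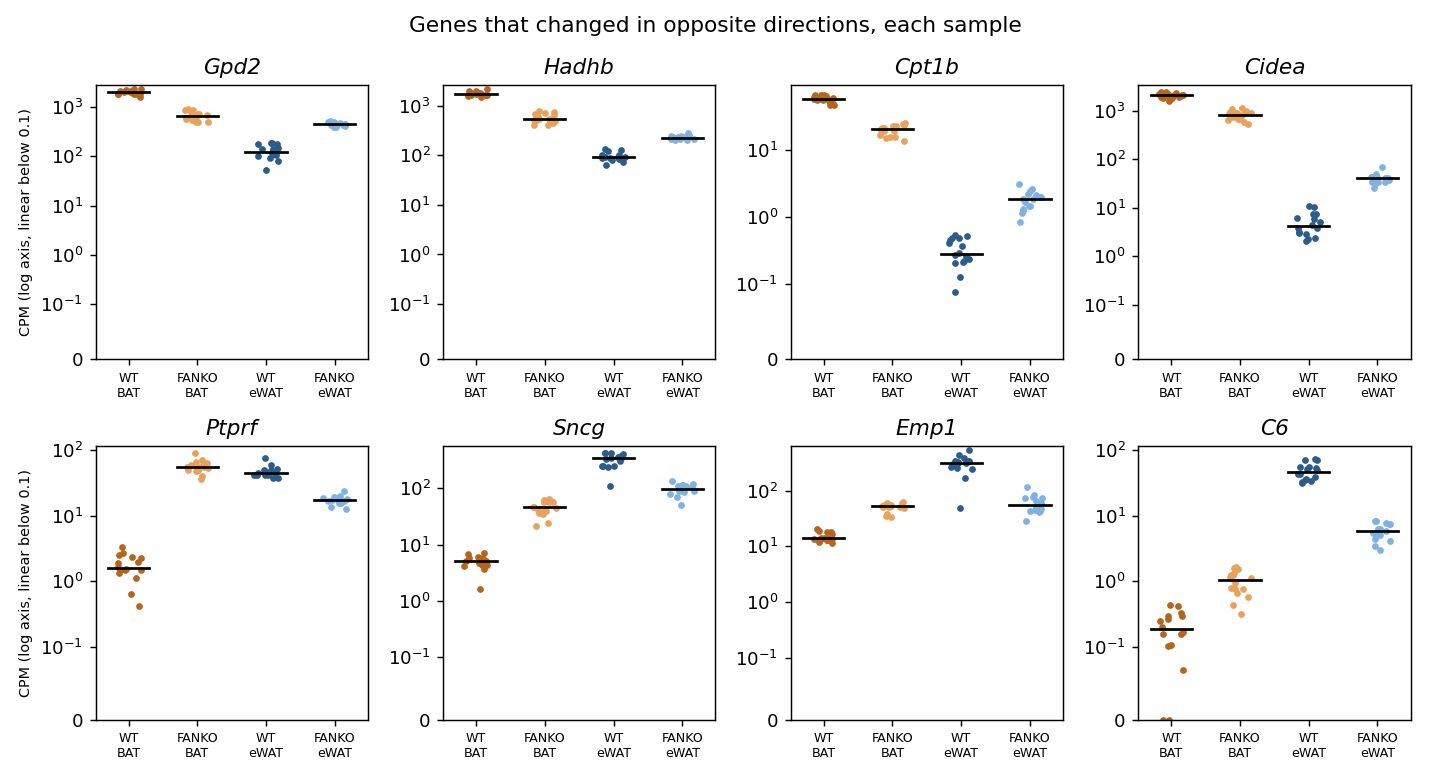
CPM (y axis, logarithmic above 0.1) of 8 genes that changed in opposite directions, 1 point per sample, 16 per group, with the group median as a line. In the upper row FANKO lay below WT in BAT and above WT in eWAT; in the lower row the order was reversed.

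The respiratory chain moved almost as a whole. Of 37 nuclear complex I genes tested, 36 fell in BAT and rose in eWAT, and 37 had a negative interaction. The median log2 fold change of the list was -1.40 in BAT and 0.74 in eWAT, against 0.004 and -0.022 over all genes tested. The remaining gene, *Ndufb3*, fell in BAT (-1.64 ± 0.071) and missed the threshold in eWAT (0.14 ± 0.072). *Ndufs1*, an iron-sulfur subunit on the electron path from NADH to ubiquinone, changed by -1.73 ± 0.073 in BAT and 0.77 ± 0.073 in eWAT. *Ndufb5* changed by -1.55 ± 0.066 in BAT and 0.74 ± 0.067 in eWAT, and *Ndufc2* by -1.46 ± 0.059 in BAT and 0.59 ± 0.06 in eWAT. The genotypes of these 3 genes did not overlap in either depot.

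Complexes II to V showed the same split. Of 38 genes tested, 36 fell in BAT and rose in eWAT, with medians of -1.39 and 0.80. *Sdhb*, a subunit of succinate dehydrogenase, changed by -1.53 ± 0.068 in BAT and 1.17 ± 0.068 in eWAT (interaction -2.70 ± 0.096). *Cyc1*, cytochrome c1 of complex III, changed by -1.57 ± 0.069 in BAT and 0.93 ± 0.07 in eWAT, and *Uqcrh*, its hinge protein, by -1.32 ± 0.061 in BAT and 0.91 ± 0.062 in eWAT. The exceptions both encode subunit c of the ATP synthase ring: *Atp5g1* rose in both depots (1.74 ± 0.10 in BAT and 0.40 ± 0.084 in eWAT), and *Atp5g3* did not pass in BAT (-0.07 ± 0.063) and rose in eWAT (0.65 ± 0.063). They were named after their values were seen, as the members outside the pattern.

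The other mitochondrial lists followed. Of 76 mitochondrial ribosome genes, 68 changed in opposite directions, with medians of -0.85 in BAT and 0.47 in eWAT, and all 76 interactions were negative. *Mrps35* changed by -1.47 ± 0.053 in BAT and 0.44 ± 0.054 in eWAT, *Mrpl3* by -1.23 ± 0.04 in BAT and 0.35 ± 0.041 in eWAT and *Mrps9* by -1.04 ± 0.04 in BAT and 0.36 ± 0.04 in eWAT. Of 17 TCA cycle genes, 16 changed in opposite directions, with medians of -1.53 and 0.65. *Idh3b*, a subunit of NAD+-dependent isocitrate dehydrogenase, changed by -1.53 ± 0.074 in BAT and 0.98 ± 0.074 in eWAT, and *Dlst*, a subunit of the 2-oxoglutarate dehydrogenase complex, by -1.62 ± 0.06 in BAT and 0.44 ± 0.061 in eWAT.

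For fatty acid oxidation the eWAT rise was smaller and fewer genes passed there. All 17 genes fell in BAT, 11 of them also rose in eWAT, and the medians were -1.86 and 0.30. *Acadm*, the medium-chain acyl-CoA dehydrogenase, changed by -2.33 ± 0.072 in BAT and 0.30 ± 0.072 in eWAT, and *Eci1*, an enoyl-CoA isomerase, by -2.14 ± 0.071 in BAT and 0.43 ± 0.072 in eWAT. Of 13 genes of the mitochondrial genome, 8 passed the filter on low counts and 7 of these changed in opposite directions. *mt-Cytb* changed by -2.21 ± 0.12 in BAT and 0.69 ± 0.12 in eWAT, *mt-Co1* by -1.40 ± 0.086 in BAT and 0.78 ± 0.086 in eWAT and *mt-Nd5* by -1.79 ± 0.11 in BAT and 0.38 ± 0.11 in eWAT. Mitochondrial genes have near-identical nuclear copies, so their counts are uncertain where reads could be split.

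The mitochondrial genome, complex I, complexes II to V, TCA cycle and fatty acid oxidation lists kept a negative BAT median and a positive eWAT median under TMM, RLE factors, library size alone, TMM without mitochondrial genes, adipocyte core scaling and TMM without the 12 libraries. For complex I the pair was -0.82 and 0.50 with library size alone and -0.29 and 1.06 with adipocyte core scaling, where 26 of 37 genes changed in opposite directions. For fatty acid oxidation the eWAT median was only 0.066 with library size alone, where 5 of 17 genes changed in opposite directions. With adipocyte core scaling it was 0.62, and 16 of the 17 did. The BAT median of the mitochondrial ribosome list turned to 0.27 under the adipocyte core scaling. Mitochondrial chaperones moved with these lists: *Hspa9* changed by -0.99 ± 0.062 in BAT and 1.10 ± 0.063 in eWAT, *Hspd1* by -1.43 ± 0.06 in BAT and 0.30 ± 0.06 in eWAT and *Hspe1* by -1.40 ± 0.067 in BAT and 0.57 ± 0.067 in eWAT. These were the 3 of 17 heat shock genes that fell in BAT and rose in eWAT, against 11.5% of all genes tested.

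**Figure D3:**
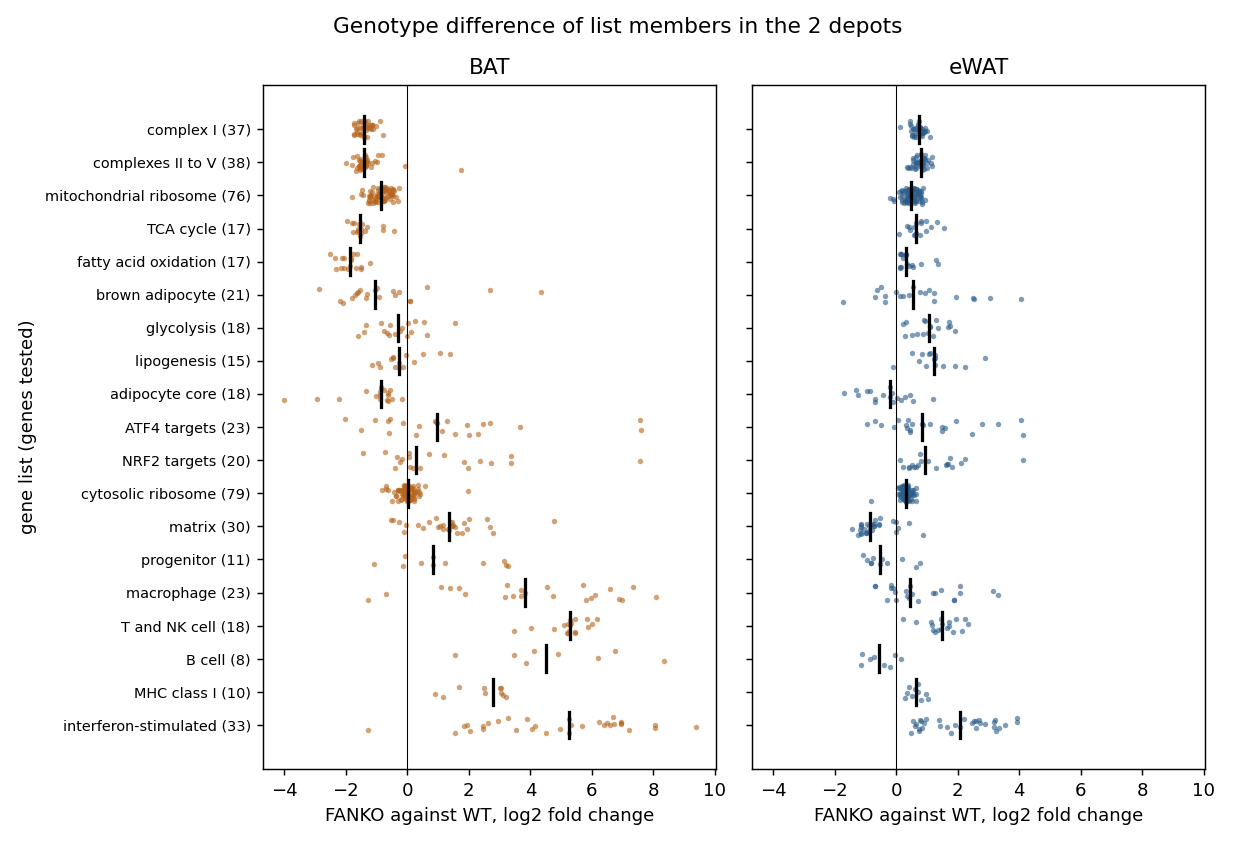
FANKO against WT log2 fold change of every tested member of 19 gene lists (x axis) in BAT and in eWAT, 1 point per gene, with the list median as a bar and the number of genes in brackets. The medians of the mitochondrial lists lie left of 0 in BAT and right of 0 in eWAT. Those of the matrix and progenitor lists lie the other way round, and those of the immune lists lie right of 0 in BAT.

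Sequences before the starts of members of these lists are shown as material for the genes that moved together. They are the 250 bases upstream of the annotated start in RefSeq on GRCm38.p6, in which motifs were searched on both strands; 12745 of 20243 tested symbols had such an entry. Capitals mark the motif. *Ndufb4* of complex I, which changed by -1.37 ± 0.091 in BAT and 0.58 ± 0.094 in eWAT, is shown with TNAAGGTCA, the element of estrogen-related receptors, and *Atp5k* of ATP synthase, which changed by -1.56 ± 0.085 in BAT and 0.86 ± 0.086 in eWAT, with the NRF1 element, searched as the unbroken palindrome of GCGC, AT and GCGC. Both factors are known regulators of mitochondrial genes. The genes were chosen for their motifs.
Ndufb4 (chr16:37654369-37654618, minus strand): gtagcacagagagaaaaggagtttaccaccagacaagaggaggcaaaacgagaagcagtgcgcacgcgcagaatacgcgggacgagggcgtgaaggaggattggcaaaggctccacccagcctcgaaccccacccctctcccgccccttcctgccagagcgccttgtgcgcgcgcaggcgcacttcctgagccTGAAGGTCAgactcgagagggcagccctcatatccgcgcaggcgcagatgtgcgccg
Atp5k (chr5:108434400-108434649, minus strand): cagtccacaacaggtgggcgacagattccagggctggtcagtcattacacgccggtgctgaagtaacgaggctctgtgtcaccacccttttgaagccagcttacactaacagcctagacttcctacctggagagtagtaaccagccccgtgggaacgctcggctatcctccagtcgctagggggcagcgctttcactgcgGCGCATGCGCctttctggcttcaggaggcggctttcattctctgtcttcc
The first motif was in 0.81% of the promoters of all genes tested, in 0.393% of those of genes that fell in BAT and rose in eWAT, in 1 of 35 for complex I, in 1 of 32 for complexes II to V, and in none of those of the TCA cycle, fatty acid oxidation and mitochondrial ribosome lists. The NRF1 motif was in 1.39% of all, in 2.4% of those that fell in BAT and rose in eWAT, in 0.346% of those that moved the other way, in 3 of 32 for complexes II to V, in 1 of 35 for complex I, in 3 of 73 for the mitochondrial ribosome, in 1 of 16 for fatty acid oxidation and in none of 21 for the TCA cycle. A match is a description of these letters and not a binding site.

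Genes of the adipocyte's own metabolism mostly had negative interactions too, but only part of them changed in opposite directions. Of 21 brown adipocyte genes, 9 fell in BAT and rose in eWAT, against 11.5% of all genes tested. In BAT 14 fell and 3 rose, and in eWAT 10 rose and 3 fell. In both depots, 2 fell and 1 rose. Of the called interactions, 14 were negative and 1 was positive. The BAT median of -1.05 turned to 0.069 under the adipocyte core scaling. *Kcnk3*, a potassium channel of brown adipocytes, changed by -0.47 ± 0.09 in BAT and 2.53 ± 0.094 in eWAT. *Cox8b* and *Cox7a1*, the muscle and brown fat isoforms of complex IV subunits, had log2 fold changes of -2.88 in BAT and 1.22 in eWAT and of -2.20 in BAT and 1.24 in eWAT. *Ucp1* lay between 1930.4 and 7370.1 CPM in WT BAT (median 4306) and between 523 and 2060.5 CPM in FANKO BAT (median 1306). In eWAT it lay between 0 and 2.41 CPM in WT eWAT (median 0.213) and between 0.1 and 7.1 CPM in FANKO eWAT (median 0.826). Its log2 fold change was -1.80 ± 0.20 in BAT, and 1.07 ± 0.49 in eWAT, where it did not pass (adjusted p = 0.051). By time point, its eWAT value was -0.34 at ZT 6, and 2.05, 1.26 and 1.31 at ZT 10, 18 and 22. The summed level of the list ranged from 2106 to 4998 CPM in FANKO BAT, below every WT BAT sample, and from 543.5 to 826.4 CPM in FANKO eWAT, which overlapped WT eWAT.

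Nearly every gene of glucose use and fat synthesis rose in eWAT. In glycolysis, 17 of 18 genes rose in eWAT and 9 fell in BAT, 8 of them in opposite directions, with medians of -0.31 in BAT and 1.07 in eWAT. *Slc2a4*, the insulin-responsive glucose transporter, lay between 427 and 1024 CPM in WT BAT (median 634) and between 276 and 469.5 CPM in FANKO BAT (median 362). The eWAT levels lay between 111 and 294 CPM in WT eWAT (median 174) and between 354 and 509 CPM in FANKO eWAT (median 402). The genotypes overlapped in BAT and not in eWAT, and the interaction was -2.04 ± 0.11, adjusted p = 2.26e-23. *Pfkm*, a phosphofructokinase, changed by -1.35 ± 0.066 in BAT and 0.68 ± 0.068 in eWAT and *Ldhb*, a lactate dehydrogenase subunit, by -1.41 ± 0.068 in BAT and 1.03 ± 0.069 in eWAT. In lipogenesis, 14 of 15 genes rose in eWAT and 6 of these fell in BAT. *Acacb*, the acetyl-CoA carboxylase that makes malonyl-CoA at mitochondria, changed by -1.15 ± 0.10 in BAT and 1.07 ± 0.10 in eWAT, and *Mlxipl*, the carbohydrate response factor ChREBP, by -0.45 ± 0.099 in BAT and 1.09 ± 0.10 in eWAT. *Fads1*, a fatty acid desaturase, rose in BAT (1.07 ± 0.057) and did not pass in eWAT (-0.11 ± 0.053). The BAT medians of both lists turned positive with library size alone and with adipocyte core scaling.

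Genes of triglyceride storage and release had the same sign in BAT. All 11 triglyceride synthesis genes fell in BAT and 6 of them rose in eWAT. *Agpat2*, an acyltransferase needed for triglyceride storage, changed by -1.06 ± 0.13 in BAT and 1.48 ± 0.13 in eWAT, *Agpat3* by -0.88 ± 0.055 in BAT and 0.38 ± 0.055 in eWAT, and *Gpd1*, which makes glycerol-3-phosphate, by -1.38 ± 0.12 in BAT and 0.99 ± 0.12 in eWAT. All 11 genes of lipolysis and lipid uptake fell in BAT and 3 rose in eWAT, against 33.8% and 27.5% of all genes tested. *Pnpla2*, the adipose triglyceride lipase, changed by -0.89 ± 0.09 in BAT and 0.53 ± 0.09 in eWAT and *Lmf1*, a maturation factor of lipases, by -0.73 ± 0.042 in BAT and 0.33 ± 0.042 in eWAT. *Vldlr*, a lipoprotein receptor, fell in BAT (-2.09 ± 0.088) and did not pass in eWAT (-0.09 ± 0.088). Both BAT medians, and the eWAT median of lipolysis and uptake, turned positive under the adipocyte core scaling. Of 21 cholesterol genes, 11 fell in BAT and 11 rose in eWAT, with 4 in opposite directions, close to the 18.4% of all genes tested. Their BAT median of -0.33 turned to 0.25 with library size alone and to 0.78 with adipocyte core scaling, and their median interaction of -0.73 to 0.092 and 0.072. *Insig1*, which holds the sterol-sensing machinery in the endoplasmic reticulum, changed by -1.76 ± 0.15 in BAT and 0.57 ± 0.15 in eWAT, *Fdft1*, squalene synthase, by -0.63 ± 0.082 in BAT and 0.50 ± 0.082 in eWAT, and *Hmgcs1* by -1.33 ± 0.089 in BAT and -0.14 ± 0.089 in eWAT, the last not passing in eWAT.

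The adipocyte core markers fell in both depots more often than they diverged. Of 18 genes, 17 fell in BAT and 9 in eWAT, 8 fell in both and 5 changed in opposite directions. *Slc2a4*, *Aqp7*, *Fabp4*, *Pnpla2* and *Cd36* were the last 5, with *Aqp7*, the adipocyte glycerol channel, at -1.02 ± 0.062 in BAT and 0.30 ± 0.062 in eWAT. *Acvr1c*, an activin receptor of adipocytes, fell by more in BAT (-2.95 ± 0.092) than in eWAT (-0.95 ± 0.09). The summed level of the list was 20640 to 33780 CPM in WT BAT and 9674 to 16690 CPM in FANKO BAT, without overlap, and 30370 to 46130 CPM in WT eWAT and 26970 to 41100 CPM in FANKO eWAT, with overlap. The median interaction of the list, -0.74, turned to 0.086 with library size alone. Under scaling to the list itself, the medians in BAT, eWAT and the interaction lay above 0. *Lep*, which encodes leptin, fell in eWAT (-1.69 ± 0.18) and did not pass in BAT (-0.18 ± 0.19).

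The reverse pattern, a rise in BAT with a fall in eWAT, was led by *C6*, *Wfdc21*, *Emp1*, *Sncg*, *Plagl1*, *Cxcl13*, *Cilp* and *Ptprf*. *Ptprf*, a receptor tyrosine phosphatase, lay between 0.424 and 3.33 CPM in WT BAT (median 1.58) and between 36.2 and 90.1 CPM in FANKO BAT (median 55.6). In the white depot it lay between 37.7 and 76.2 CPM in WT eWAT (median 44.7) and between 12.8 and 24.2 CPM in FANKO eWAT (median 17.3). No genotypes overlapped, and FANKO BAT reached the range of WT eWAT. The log2 fold change was 5.02 ± 0.14 in BAT and -1.43 ± 0.095 in eWAT, with an interaction of 6.45 ± 0.17, adjusted p = 3.34e-37. *Sncg*, gamma-synuclein, which is abundant in white fat, lay between 1.63 and 7.12 CPM in WT BAT (median 5.16) and between 21.8 and 63.5 CPM in FANKO BAT (median 46). Samples of eWAT lay between 112 and 434 CPM in WT eWAT (median 350.1) and between 51.7 and 134 CPM in FANKO eWAT (median 97.8). BAT genotypes were apart and eWAT genotypes overlapped, with log2 fold changes of 3.19 ± 0.16 in BAT and -1.74 ± 0.13 in eWAT and an interaction of 4.93 ± 0.21, adjusted p = 1.97e-27.

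*Emp1*, an epithelial membrane protein, lay between 11.5 and 20.4 CPM in WT BAT (median 13.9) and between 34.2 and 62 CPM in FANKO BAT (median 52.4). Levels in eWAT ran between 48.9 and 531 CPM in WT eWAT (median 315) and between 29.1 and 114 CPM in FANKO eWAT (median 55.4), and its interaction was 4.12 ± 0.20, adjusted p = 2.35e-25. *C6*, a component of the complement membrane attack complex, was near its detection limit in WT BAT, so its eWAT values carry the comparison: it lay between 31.1 and 73.3 CPM in WT eWAT (median 46.6) and between 2.98 and 8.39 CPM in FANKO eWAT (median 5.84), without overlap, a log2 fold change of -3.001 ± 0.12. In BAT it lay between 0 and 0.436 CPM in WT BAT (median 0.186) and between 0.316 and 1.65 CPM in FANKO BAT (median 1.03). *Plagl1*, an imprinted zinc finger factor, changed by 1.505 ± 0.18 in BAT and -2.02 ± 0.11 in eWAT. *Cilp*, a cartilage matrix protein, changed by 2.91 ± 0.41 in BAT and -1.44 ± 0.22 in eWAT, *Wfdc21* by 1.97 ± 0.37 in BAT and -2.45 ± 0.15 in eWAT, and *Cxcl13*, a chemokine that attracts B cells, by 2.92 ± 0.53 in BAT and -1.49 ± 0.36 in eWAT. *Cxcl13* lost its class without the replicates numbered 4 and in a limma-voom fit.

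Among the 39 gene lists, extracellular matrix held the most genes of this kind. Of 30 matrix genes, 29 had positive interactions, 25 rose in BAT and 23 fell in eWAT. In opposite directions, 19 rose in BAT and fell in eWAT, and 1, *Col12a1*, moved the other way (-0.52 in BAT and 0.41 in eWAT). The medians were 1.37 in BAT and -0.84 in eWAT. *Fn1*, fibronectin, lay between 27.7 and 65.6 CPM in WT BAT (median 40.7) and between 92 and 213 CPM in FANKO BAT (median 153). Its eWAT range ran between 318 and 823 CPM in WT eWAT (median 559.7) and between 205 and 404 CPM in FANKO eWAT (median 269). BAT genotypes did not overlap, eWAT genotypes did, and the interaction was 2.97 ± 0.14, adjusted p = 4.43e-25. *Mmp14*, a membrane-bound matrix protease, changed by 2.70 ± 0.099 in BAT and -0.53 ± 0.089 in eWAT and *Col18a1*, a basement membrane collagen, by 1.79 ± 0.081 in BAT and -0.55 ± 0.075 in eWAT.

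Markers of adipose progenitors moved in part with the matrix genes. Of 11, 6 rose in BAT and fell in eWAT, against 6.85% of all genes tested. In BAT 8 rose and 1 fell, in eWAT 7 fell and 2 rose, and 1 called interaction was negative. *Dpp4*, a marker of early progenitors, changed by 3.21 ± 0.12 in BAT and -0.74 ± 0.087 in eWAT, and *Cd34* by 1.23 ± 0.06 in BAT and -0.54 ± 0.057 in eWAT. *Pdgfra*, *Thy1*, *Fap* and *Pi16* were the other members of that class, with BAT values of 0.83, 2.46, 0.45 and 0.83 and eWAT values of -0.80, -0.46, -1.07 and -0.82. *Icam1*, an adhesion molecule that immune and endothelial cells also carry, rose in BAT (3.27 ± 0.099) and did not pass in eWAT (0.18 ± 0.083). The summed progenitor level was 228.8 to 299.2 CPM in WT BAT and 529 to 737 CPM in FANKO BAT, and 472.8 to 627.2 CPM in WT eWAT and 381.3 to 582.5 CPM in FANKO eWAT. Whether the matrix genes moved with the number of such cells was not tested.

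Interferon-stimulated genes differed between the depots in the size of the change and not in its direction. Of 33 genes, 32 rose in both depots, each more in BAT, with medians of 5.24 in BAT and 2.08 in eWAT. *Oasl2*, an antiviral protein of the oligoadenylate synthetase family, lay between 1.51 and 3.67 CPM in WT BAT (median 2.29) and between 157 and 348 CPM in FANKO BAT (median 240.3). In eWAT it lay between 9.2 and 21.6 CPM in WT eWAT (median 15.6) and between 14.6 and 130.4 CPM in FANKO eWAT (median 53.7). BAT genotypes were far apart and eWAT genotypes overlapped, with log2 fold changes of 6.73 ± 0.19 in BAT and 1.66 ± 0.14 in eWAT and an interaction of 5.06 ± 0.23, adjusted p = 6.65e-27. *Oas2* changed by 5.26 ± 0.16 in BAT and 1.38 ± 0.12 in eWAT, and *Ifitm3*, a membrane protein that blocks virus entry, by 3.88 ± 0.11 in BAT and 0.83 ± 0.11 in eWAT. The exception was *Ifi27*, which fell in BAT and rose in eWAT (-1.26 in BAT and 0.54 in eWAT).

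*Isg15*, a ubiquitin-like protein, is shown with the interferon-stimulated response element, searched as GAAA, any 2 bases and GAAA. It lay between 0.331 and 1.55 CPM in WT BAT (median 0.992) and between 34.3 and 122 CPM in FANKO BAT (median 76.8), and between 0.768 and 3.32 CPM in WT eWAT (median 1.49) and between 2.21 and 49.9 CPM in FANKO eWAT (median 16.3). Its 3 overlapping matches are in capitals, and the gene was chosen for them.
Isg15 (chr4:156200819-156201068, minus strand): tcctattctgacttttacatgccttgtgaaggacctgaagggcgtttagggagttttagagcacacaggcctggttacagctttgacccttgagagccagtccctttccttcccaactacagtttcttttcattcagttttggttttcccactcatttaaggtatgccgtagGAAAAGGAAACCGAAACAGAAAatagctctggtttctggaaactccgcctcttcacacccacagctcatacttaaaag
The motif was in 9 of 26 promoters of the list (34.6%) and in 2.8% of the promoters of all genes tested, and in 2.77% of those of genes that rose in BAT and fell in eWAT.

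Antigen presentation genes followed the interferon genes. All 10 MHC class I genes rose in both depots with positive interactions, and the medians were 2.78 in BAT and 0.66 in eWAT. *B2m*, the light chain of class I molecules, lay between 248 and 382 CPM in WT BAT (median 302) and between 1674 and 3135 CPM in FANKO BAT (median 2532). The eWAT levels lay between 741 and 1086 CPM in WT eWAT (median 911) and between 1193 and 2177 CPM in FANKO eWAT (median 1479). The genotypes did not overlap in either depot (interaction 2.34 ± 0.11, adjusted p = 8.46e-26). *Nlrc5*, the transactivator of class I genes, changed by 3.22 ± 0.085 in BAT and 0.52 ± 0.081 in eWAT and *H2-D1* by 2.49 ± 0.071 in BAT and 0.61 ± 0.071 in eWAT, with the caution that H2 genes share near-identical sequence. All 7 class II genes rose in BAT and 4 rose in eWAT. *H2-Ab1* changed by 2.91 ± 0.12 in BAT and 0.40 ± 0.11 in eWAT. *Ciita*, their transactivator, and *Cd74*, the invariant chain, rose in BAT (3.03 ± 0.14 and 2.79 ± 0.12) and did not pass in eWAT (0.25 ± 0.12 and 0.24 ± 0.11).

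Markers of immune cells rose with these genes, mostly in BAT. Of 23 macrophage markers, 21 rose in BAT and 13 of these also in eWAT, with medians of 3.83 and 0.45. The other 2 fell in both depots, 1 marker rose in BAT and fell in eWAT, and 2 called interactions were negative. *Lgals3*, galectin-3, lay between 1.81 and 4.96 CPM in WT BAT (median 2.89) and between 174 and 409 CPM in FANKO BAT (median 295). In the white depot it lay between 41.9 and 90.4 CPM in WT eWAT (median 73.4) and between 156 and 353 CPM in FANKO eWAT (median 244). It was apart in both depots, with an interaction of 4.70 ± 0.17, adjusted p = 1.50e-30. *Ctss*, a lysosomal protease of antigen-presenting cells, changed by 6.09 ± 0.16 in BAT and 1.20 ± 0.15 in eWAT. *Trem2*, a lipid receptor of macrophages, rose in BAT (5.98 ± 0.27) and did not pass in eWAT (0.34 ± 0.14). The summed list was 166.6 to 307.2 CPM in WT BAT and 1551 to 3908 CPM in FANKO BAT, and 1039 to 1451 CPM in WT eWAT and 1173 to 2315 CPM in FANKO eWAT.

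Lymphocyte lists split from each other in eWAT. All 18 T and NK cell markers had positive interactions, and 16 rose in both depots. *Il2rb*, an interleukin receptor chain, changed by 5.28 ± 0.23 in BAT and 1.17 ± 0.17 in eWAT and *Ncr1*, an NK cell receptor, by 5.46 ± 0.30 in BAT and 1.27 ± 0.16 in eWAT, whereas *Cd2* changed by 5.44 ± 0.29 in BAT and did not pass in eWAT (0.23 ± 0.16). All 8 B cell markers rose in BAT, and *Ms4a1*, *Cd79a* and *Cd79b* were among those that fell in eWAT. *Ighm*, the heavy chain of IgM, lay between 3.17 and 7.21 CPM in WT BAT (median 5.8) and between 138 and 1442 CPM in FANKO BAT (median 222). Samples of eWAT lay between 97.3 and 449 CPM in WT eWAT (median 251) and between 137 and 298 CPM in FANKO eWAT (median 228). *Igkc* and *Jchain* rose in BAT only (8.35 ± 0.63 and 6.76 ± 0.49). The summed B cell list was 5.599 to 14.4 CPM in WT BAT and 249.2 to 2524 CPM in FANKO BAT, and 166.2 to 462 CPM in WT eWAT and 159.2 to 341 CPM in FANKO eWAT. The part of immune cell number in the interferon, MHC and proliferation results was not tested. Of 24 proliferation genes, 22 rose in BAT and 6 in eWAT, against 33.3% and 27.5% of all genes tested. *Mki67* and *Top2a*, proteins of dividing cells, rose in BAT (3.66 ± 0.23 and 3.98 ± 0.26) and did not pass in eWAT, and *Mcm6*, a subunit of the replicative helicase, rose in BAT (2.14 ± 0.095).

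**Figure D4:**
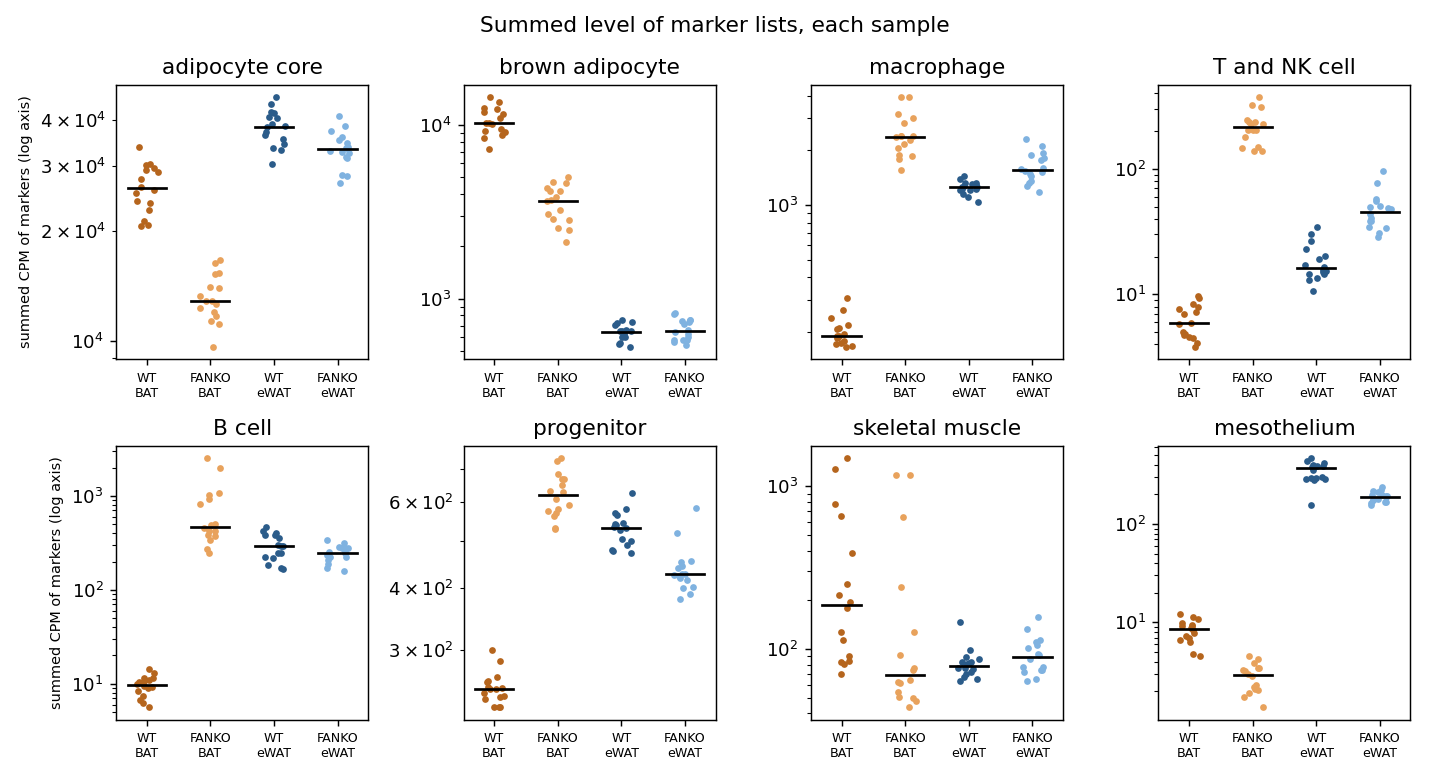
Summed CPM (y axis, logarithmic) of 8 marker lists, 1 point per sample, 16 per group, with the group median as a line. Macrophage, T and NK cell and B cell markers rose most in FANKO BAT, and a few BAT libraries were high in skeletal muscle markers. The median progenitor sum was higher in FANKO than in WT BAT and lower in FANKO than in WT eWAT, where the genotypes overlapped.

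Genes that changed alike gave a small set with large effects. The 6 with the largest rise in both depots were *Maff*, *Tmie*, *Marc1*, *Fabp5*, *Reep6* and *Mapk8ip1*. *Fabp5*, a fatty acid binding protein, lay between 26.6 and 94.6 CPM in WT BAT (median 70.4) and between 254 and 438 CPM in FANKO BAT (median 354). Levels in eWAT ran between 41.3 and 119 CPM in WT eWAT (median 65.9) and between 207 and 453 CPM in FANKO eWAT (median 350.0). The groups of each genotype nearly coincided between depots, with log2 fold changes of 2.37 ± 0.12 in BAT and 2.29 ± 0.12 in eWAT and an interaction of 0.07 ± 0.17 (95% interval -0.27 to 0.42). *Marc1*, a mitochondrial amidoxime-reducing enzyme, lay between 5.39 and 22.6 CPM in WT BAT (median 14.8) and between 47.8 and 81.5 CPM in FANKO BAT (median 66.8). Its eWAT range ran between 4.95 and 46.9 CPM in WT eWAT (median 25.5) and between 84.2 and 149 CPM in FANKO eWAT (median 130.4). Its interaction was 0.04 ± 0.22 (95% interval -0.40 to 0.48).

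*Reep6*, a protein that shapes the endoplasmic reticulum, changed by 1.91 ± 0.13 in BAT and 1.96 ± 0.12 in eWAT, *Mapk8ip1*, a scaffold of JNK signalling, by 1.77 ± 0.15 in BAT and 1.77 ± 0.15 in eWAT, and *Tmie* by 2.30 ± 0.13 in BAT and 2.42 ± 0.15 in eWAT. The interaction of *Tmie* was positive at ZT 6 and 10 (0.54 and 0.30) and negative at ZT 18 and 22 (-0.40 and -0.95). *Maff*, a small MAF transcription factor, was alike only in the mean over time points. It changed by 2.90 ± 0.14 in BAT and 2.82 ± 0.14 in eWAT, but its interaction was positive at ZT 6 and 10 (0.85 and 1.85) and negative at ZT 18 and 22 (-0.44 and -1.96), and it differed between time points (adjusted p = 8.67e-05). It lay between 2.63 and 44 CPM in WT BAT (median 8.94) and between 47.8 and 109 CPM in FANKO BAT (median 67.4). The WT BAT samples were spread widely but stayed below every FANKO BAT sample. In eWAT it lay between 2.78 and 7.33 CPM in WT eWAT (median 3.93) and between 14.5 and 65.4 CPM in FANKO eWAT (median 26.5).

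The 6 genes with the largest fall in both depots were *Glb1l2*, *Kcp*, *Tmem178b*, *Timp4*, *Ndrg2* and *Sh3pxd2a*. *Glb1l2*, a galactosidase-like protein, lay between 27.4 and 47.6 CPM in WT BAT (median 33.5) and between 4.06 and 12.7 CPM in FANKO BAT (median 6.52). The eWAT levels lay between 361 and 554 CPM in WT eWAT (median 479) and between 57 and 141 CPM in FANKO eWAT (median 91). Its basal level differed between the depots, and the log2 fold change was -2.25 ± 0.10 in BAT and -2.35 ± 0.09 in eWAT, with an interaction of 0.10 ± 0.14 (95% interval -0.17 to 0.38). *Ndrg2*, a stress-responsive protein of the NDRG family, lay between 303 and 477 CPM in WT BAT (median 352) and between 97.1 and 166 CPM in FANKO BAT (median 135). In the white depot it lay between 89.3 and 201 CPM in WT eWAT (median 145) and between 43.9 and 69.3 CPM in FANKO eWAT (median 54.3), and its interaction was 0.04 ± 0.11 (95% interval -0.17 to 0.26). *Timp4*, an inhibitor of matrix metalloproteinases that adipocytes secrete, changed by -1.60 ± 0.11 in BAT and -1.44 ± 0.10 in eWAT. *Sh3pxd2a*, a podosome scaffold, changed by -1.49 ± 0.079 in BAT and -1.34 ± 0.078 in eWAT, *Kcp* by -1.62 ± 0.13 in BAT and -1.59 ± 0.16 in eWAT and *Tmem178b* by -1.64 ± 0.13 in BAT and -1.500 ± 0.13 in eWAT. All 12 genes kept their direction of change in both depots in each alternative fit, but none met the rule for alike with library size alone or with adipocyte core scaling. *Glb1l2*, *Ndrg2* and *Sh3pxd2a* met it in every other fit, and *Maff*, *Tmie* and *Marc1* missed it most often.

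**Figure D5:**
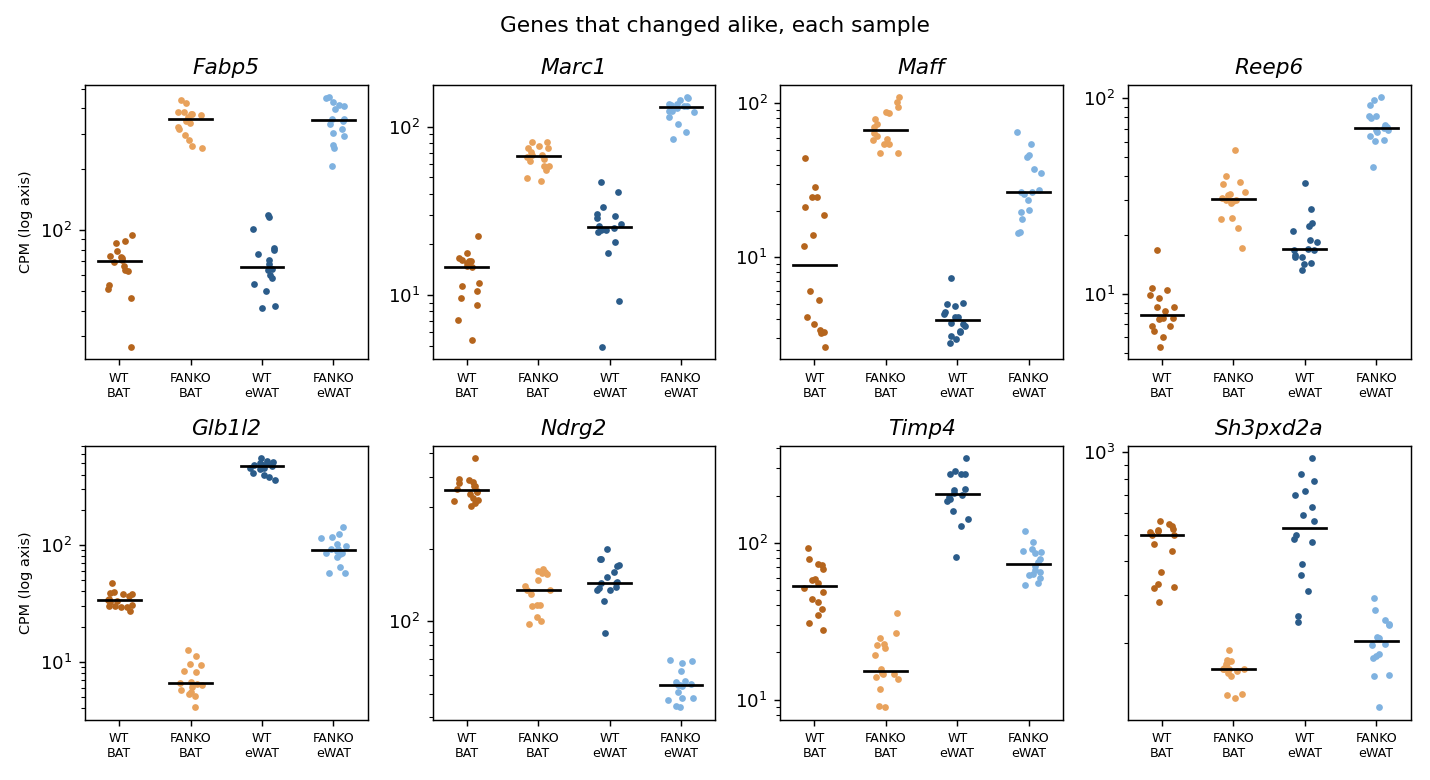
CPM (y axis, logarithmic) of 8 genes that changed alike, 1 point per sample, 16 per group, with the group median as a line. FANKO lay above WT in both depots in the upper row and below WT in the lower row, by similar ratios.

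Stress-response lists held many genes that rose in both depots, which 9.73% of all genes tested did. Of 23 genes named as targets of ATF4, the factor of the integrated stress response, 14 rose in both depots, with medians of 0.96 in BAT and 0.82 in eWAT. *Psat1*, of serine synthesis, rose more in BAT (2.02 ± 0.099 in BAT and 0.51 ± 0.073 in eWAT). *Ddit3*, the factor CHOP, changed alike (1.57 ± 0.11 in BAT and 1.49 ± 0.11 in eWAT, interaction 0.08 ± 0.15). *Gdf15* and *Fgf21*, secreted stress signals, rose in both: *Gdf15* by 7.61 in BAT and 3.31 in eWAT and *Fgf21* by 2.68 in BAT and 4.05 in eWAT, the first with a positive and the second with a negative interaction. *Asns*, asparagine synthetase, *Cebpg* and *Psph* instead fell in BAT and rose in eWAT, with *Asns* at -1.51 ± 0.07 in BAT and 0.35 ± 0.069 in eWAT and *Cebpg* at -0.60 ± 0.05 in BAT and 0.31 ± 0.05 in eWAT. *Slc7a11*, the cystine transporter, lay between 0 and 0.275 CPM in WT BAT (median 0.0653) and between 7.44 and 51.5 CPM in FANKO BAT (median 15), and between 0.338 and 1.49 CPM in WT eWAT (median 0.819) and between 3.57 and 32.4 CPM in FANKO eWAT (median 15.1). It is shown with the C/EBP-ATF response element, searched as TGATGNAA, whose 2 matches, 1 on each strand, are in capitals.
Slc7a11 (chr3:50443614-50443863, minus strand): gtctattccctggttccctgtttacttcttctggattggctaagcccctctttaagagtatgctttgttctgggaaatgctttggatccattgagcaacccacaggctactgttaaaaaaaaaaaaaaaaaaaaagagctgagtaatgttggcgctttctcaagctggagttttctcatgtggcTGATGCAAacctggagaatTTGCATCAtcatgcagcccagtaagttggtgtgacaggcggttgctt
The motif was in 6 of 24 promoters of the ATF4 list (25%) and in 2.17% of the promoters of all genes tested. *Gdf15*, *Fgf21*, *Ddit3*, *Psph* and *Slc7a11* were named after their values were seen.

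Of 20 targets of NRF2, the factor of the oxidative stress response, 19 rose in eWAT and 11 of them also in BAT. *Ftl1* and *Fth1*, the ferritin chains, changed alike (1.84 in BAT and 1.64 in eWAT, and 0.40 in BAT and 0.72 in eWAT). *Gsta4*, a glutathione transferase, and *Taldo1*, of the pentose phosphate pathway, changed in opposite directions (-1.43 ± 0.10 in BAT and 0.82 ± 0.10 in eWAT, and -0.41 ± 0.092 in BAT and 1.28 ± 0.092 in eWAT). *Gclc*, the catalytic subunit of glutathione synthesis, rose in eWAT (1.05 ± 0.058) and did not pass in BAT (0.09 ± 0.06). Of 17 p53 targets, 7 rose in both depots and 4 of these changed alike: *Mdm2*, *Aen*, *Tnfrsf10b* and *Cdkn1a*. *Cdkn1a*, the cell cycle inhibitor p21, changed by 1.09 in BAT and 1.08 in eWAT. *Pmaip1*, a pro-apoptotic protein, rose more in BAT (4.80 ± 0.26 in BAT and 0.80 ± 0.17 in eWAT), and *Eda2r* and *Btg2* rose in BAT only (1.97 ± 0.12 and 0.94 ± 0.08).

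Transcripts of ribosomal proteins and proteasome subunits mostly rose in eWAT and were divided in BAT. Of 79 cytosolic ribosome genes, 66 rose in eWAT and 16 changed alike upward, against 27.5% and 3.6% of all genes tested. Another 14 changed in opposite directions, close to the 18.4% of all genes tested. The medians were 0.018 in BAT and 0.32 in eWAT. *Rps2* changed by -0.30 ± 0.055 in BAT and 0.64 ± 0.055 in eWAT, *Rplp2* by -0.83 ± 0.061 in BAT and 0.26 ± 0.06 in eWAT and *Rps27l* by -0.63 ± 0.062 in BAT and 0.48 ± 0.063 in eWAT. Of 34 proteasome genes, 33 rose in eWAT and 17 fell in BAT, 16 of them in opposite directions. *Psmb3* changed by -0.69 ± 0.064 in BAT and 0.59 ± 0.065 in eWAT and *Psma3* by -0.47 ± 0.051 in BAT and 0.38 ± 0.051 in eWAT. With library size alone, the eWAT medians were 0.073 for the ribosome and 0.13 for the proteasome. *Psmd8* rose in eWAT (1.23 ± 0.07) and did not pass in BAT (0.05 ± 0.07). The median interactions of both lists, and of the NRF2 and heat shock lists, turned positive with library size alone and with adipocyte core scaling, as did the BAT median of the proteasome. The BAT median of the ribosome was -0.0021 when mitochondrial genes were left out of TMM. Ribosomal protein genes have many pseudogene copies, so their counts are uncertain.

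Genes of NAD+ synthesis were divided between both opposite patterns. Of 17 genes of NAD+ synthesis, 5 fell in BAT and rose in eWAT, 3 rose in BAT and fell in eWAT, and 3, *Nampt* among them, fell in both. Over all genes tested these shares were 11.5%, 6.85% and 7.52%. *Nadk2*, the mitochondrial NAD+ kinase, changed by -1.35 ± 0.055 in BAT and 0.26 ± 0.056 in eWAT, and *Nadk*, its cytosolic counterpart, by -0.67 in BAT and 0.41 in eWAT. All 3 *Nmnat* genes, which complete NAD+ synthesis, changed in opposite directions: *Nmnat1* by -0.27 in BAT and 0.52 in eWAT, *Nmnat3* by -0.47 in BAT and 0.51 in eWAT and *Nmnat2*, which is neuronal, by 1.40 in BAT and -1.21 in eWAT. *Naprt*, which uses nicotinic acid, fell in BAT (-1.78 ± 0.068) and did not pass in eWAT (-0.03 ± 0.07). *Kmo* and *Haao*, of synthesis from tryptophan, rose in BAT (3.08 and 3.86). The BAT median and the median interaction of NAD+ synthesis turned positive with library size alone and with adipocyte core scaling, and the eWAT median with the latter. The genes named here beside *Nampt*, *Nadk2* and *Naprt* were named after their values were seen.

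Among 15 NAD+ consumers, *Parp1*, the main DNA damage-activated PARP, lay between 83.9 and 137 CPM in WT BAT (median 121) and between 64.2 and 76.5 CPM in FANKO BAT (median 71). Samples of eWAT lay between 44.8 and 58.4 CPM in WT eWAT (median 54.7) and between 72.6 and 88.9 CPM in FANKO eWAT (median 81.1). The genotypes did not overlap in either depot, and the interaction was -1.35 ± 0.057, adjusted p = 8.70e-28. *Sirt2* and *Sirt5* also changed in opposite directions (-0.55 in BAT and 0.27 in eWAT, and -0.82 in BAT and 0.48 in eWAT). With *Parp1* they were the 3 of 15 consumers of this kind, close to the 18.4% of all genes tested. *Sirt3*, the main mitochondrial deacetylase, fell in BAT (-1.55 ± 0.06) and did not pass in eWAT (-0.18 ± 0.066). *Parp14*, an interferon-inducible PARP, rose more in BAT (3.26 ± 0.081 in BAT and 0.84 ± 0.08 in eWAT), and *Parp3* changed alike upward (1.19 in BAT and 0.85 in eWAT). *Sirt1* passed in neither depot (-0.16 in BAT and -0.12 in eWAT). The median interaction of the consumers, -0.028, turned positive with RLE factors, library size alone, adipocyte core scaling and without the 12 libraries, and the BAT median with the first 3. Their eWAT median turned to -0.023 with library size alone.

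Among genes that moved the same way in both depots with a called interaction, 1662 of 1940 changed more in BAT and 278 more in eWAT. *Car3*, carbonic anhydrase 3, an abundant adipocyte enzyme, lay between 3089 and 6015 CPM in WT BAT (median 4646) and between 149.8 and 607 CPM in FANKO BAT (median 244). Levels in eWAT ran between 11770.0 and 21952 CPM in WT eWAT (median 14589) and between 3579.7 and 9676 CPM in FANKO eWAT (median 6063). The genotypes were apart in both, with log2 fold changes of -4.09 ± 0.10 in BAT and -1.21 ± 0.10 in eWAT and an interaction of -2.88 ± 0.14, adjusted p = 1.53e-24. *Zfp185*, a LIM domain protein, changed by -4.16 ± 0.16 in BAT and -1.41 ± 0.096 in eWAT, and *Il17re*, an interleukin-17 receptor chain, by -3.69 ± 0.18 in BAT and -0.70 ± 0.13 in eWAT. Of genes that rose more in eWAT, *Phospho1*, a phosphatase of phosphocholine, lay between 12.1 and 34.5 CPM in WT BAT (median 16.1) and between 16 and 47.9 CPM in FANKO BAT (median 32.4). Its eWAT range ran between 0.366 and 0.769 CPM in WT eWAT (median 0.457) and between 4.07 and 15.1 CPM in FANKO eWAT (median 10.6), with log2 fold changes of 0.78 ± 0.10 in BAT and 4.31 ± 0.18 in eWAT. *Sorcs2*, a sorting receptor, changed by 1.34 ± 0.19 in BAT and 3.73 ± 0.24 in eWAT and *Lctl* by 0.54 ± 0.17 in BAT and 3.26 ± 0.18 in eWAT. Of genes that fell more in eWAT, *Lrg1*, a secreted glycoprotein, changed by -1.94 ± 0.13 in BAT and -2.87 ± 0.12 in eWAT, *Hmcn2* by -0.48 ± 0.16 in BAT and -2.06 ± 0.15 in eWAT and *Col23a1* by -0.39 ± 0.11 in BAT and -1.28 ± 0.12 in eWAT. The BAT values of the last 2 turned positive with library size alone and with adipocyte core scaling. *Lctl* left its class without replicates 1, 2 or 4, *Hmcn2* without replicates 1, 3 or 4, with RLE factors and in limma-voom, and *Col23a1* without replicates 1 or 3. All 3 also left it with marker covariates and without the 12 libraries.

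The most positive interactions belonged to transcripts nearly undetected in WT BAT, so their levels are given in place of fitted ratios. *Apol9a* had 6 counts over the 16 WT BAT samples and 12314 over the 16 FANKO BAT samples, at 21.8 to 85.3 CPM in FANKO BAT. In eWAT it lay between 0.46 and 2.39 CPM in WT eWAT (median 1.45) and between 1.28 and 16.8 CPM in FANKO eWAT (median 6.09). Its near-identical neighbour *Apol9b* lay between 0 and 0.282 CPM in WT BAT (median 0.0735) and between 17 and 52.6 CPM in FANKO BAT (median 25.7), and reads of these apolipoprotein L genes could be split between them. *Slfn4*, a myeloid schlafen protein, lay between 0 and 0.645 CPM in WT BAT (median 0.155) and between 70.4 and 311 CPM in FANKO BAT (median 168). The eWAT levels lay between 0.941 and 3.73 CPM in WT eWAT (median 1.85) and between 1.81 and 66.7 CPM in FANKO eWAT (median 12.2). *Alox15*, a lipoxygenase, and *Slpi*, a secreted protease inhibitor, lay at up to 0.136 and 0.174 CPM in WT BAT and at medians of 5.33 and 7.54 CPM in FANKO BAT, and did not pass in eWAT.

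Of 17 adipokines and secreted factors, the 1 in opposite directions, against 18.4% of all genes tested, was *Vegfa*, the angiogenic growth factor (-0.95 ± 0.063 in BAT and 0.56 ± 0.063 in eWAT). *Tnf* rose in both, more in BAT (5.11 ± 0.26 in BAT and 1.02 ± 0.16 in eWAT), and *Bmp8b*, a thermogenic ligand, rose in BAT (4.33 ± 0.20) and did not pass in eWAT (-0.61 ± 0.28). Of 17 receptors, 2 changed in opposite directions, against 18.4% of all genes tested. They were *Ptger3*, a prostaglandin E2 receptor that restrains lipolysis (-2.35 ± 0.16 in BAT and 0.55 ± 0.16 in eWAT), and *Adora1*. *Adra1a* fell in both (-2.11 ± 0.086 in BAT and -0.77 ± 0.11 in eWAT), and *Adrb1* fell in BAT (-1.59 ± 0.11). In the creatine cycle of 7 genes, *Gatm* and *Gamt*, the 2 steps of creatine synthesis, had interactions of 1.39 ± 0.18 and 0.95 ± 0.20, and *Alpl*, the phosphatase of that cycle, rose in both depots (1.87 ± 0.098 in BAT and 1.16 ± 0.11 in eWAT). The BAT medians of the secreted factors (-0.18) and receptors (-0.34) turned positive with library size alone and with adipocyte core scaling. The eWAT median of the receptors (-0.24) turned to 0.074 with the latter, and that of the creatine cycle (0.14) to -0.12 with the former.

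Clock genes were compared in mean level only. Of 20, 9 had a called interaction, against 64% of all genes tested, and all 9 were negative. The median interaction and the BAT median turned positive with library size alone and with adipocyte core scaling, the BAT median also without the 12 libraries, and the eWAT median turned to -0.044 with library size alone. *Hlf*, an output factor, fell in BAT (-1.64 ± 0.088) and did not pass in eWAT (-0.04 ± 0.09). *Ciart*, a repressor of the clock, was the 1 in opposite directions (-1.09 ± 0.14 in BAT and 0.56 ± 0.14 in eWAT). *Per2* and *Bhlhe41* changed alike, the first down (-0.62 in BAT and -0.55 in eWAT) and the second up (0.55 in BAT and 0.53 in eWAT).

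The interaction was also tested for a difference between time points. It differed for 284 genes (1.4%), and 3335 genes (16.5%) had an unadjusted p under 0.05, so a gene that missed the threshold is not shown to be steady. Of the 3716 genes in opposite directions, 3318 kept both signs at each of the 4 time points, and 64 had a time-dependent interaction. Of the 1427 alike, 1239 kept both signs throughout. For *Gpd2* the log2 interaction was -3.64 and -3.61 at ZT 6 and 10, and -3.07 and -3.32 at ZT 18 and 22. The count of 284 fell to 33, 23, 70 and 144 when the replicates numbered 1, 2, 3 and 4 were left out in turn.

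Markers of the other cell types varied in how many interactions were called, against 64% of all genes tested. Of 12 endothelial genes, 7 had negative and 2 positive interactions. *Kdr* and *Tie1*, endothelial receptors, fell in BAT (-0.62 ± 0.064 and -0.59 ± 0.06) and did not pass in eWAT, and *Vwf* rose in BAT and fell in eWAT (0.73 ± 0.12 in BAT and -0.62 ± 0.11 in eWAT). The interactions of *Kdr* and *Tie1*, -0.78 ± 0.09 and -0.66 ± 0.084, turned positive with library size alone and with adipocyte core scaling, as did the BAT medians and median interactions of the endothelial and skeletal muscle lists. The endothelial eWAT median turned to 0.22 with the latter. Of 16 skeletal muscle genes, *Myl1* had a called interaction (-1.26 ± 0.16, adjusted p = 3.80e-10), and *Neb* and *Acta1* did not pass (1.24 ± 0.47 and -1.67 ± 0.73), although *Neb* passed in several alternative fits, DESeq2 among them, and *Acta1* without replicate 2. Of 12 epididymis genes, the one with the smallest p, *Rnase10*, had an interaction of -1.09 ± 0.75 and did not pass. Of 5 nerve genes, *S100b* (-2.11 ± 0.23) was negative and *Sox10* (1.70 ± 0.53) was positive. The call of *Sox10* was lost in limma-voom, without replicate 2 or 4, with marker covariates and without the 12 libraries (adjusted p = 0.0213 to 0.0526). Without these libraries the nerve and epididymis median interactions changed sign, to -0.0039 and 0.80. All 6 mesothelium genes fell in eWAT, where their sum was 157.6 to 467 CPM in WT and 156.9 to 238.2 CPM in FANKO samples; *Lrrn4* also fell in BAT (-1.68 ± 0.13 in BAT and -0.69 ± 0.097 in eWAT).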

How the data were processed

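Transcripts of both depots and genotypes were measured by RNA-seq in 64 samples in 16 groups of 4. According to the sources, RNA was isolated with TRI reagent, libraries were made with the TruSeq Stranded Total RNA kit with Ribo-Zero Gold, sequenced as 38-bp pairs on a NextSeq500, aligned with STAR 2.5.3a to GRCm38.p5 with GENCODE annotation version 15, and counted with featureCounts 1.5.3; the strand setting of the counting is not given in the sources used here. The authors deposited 1 table of raw counts for 52636 genes, not normalized. Symbols were matched by identifier for 52489 of them through GENCODE M21.

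Here, 20249 genes passed edgeR's filterByExpr (minimum count 10, minimum total 15). Counts were TMM-scaled and fitted with the quasi-likelihood model of edgeR 4.0.16 (R 4.3.3), with 16 group means and 48 residual degrees of freedom. BAT and eWAT contrasts averaged the 4 time points, the interaction was their difference, and a test of 3 degrees of freedom asked whether it differed between time points. P-values were adjusted by Benjamini-Hochberg over all genes tested at FDR 0.01. SEs are Wald errors and are missing where a group of 4 was all 0. The script was tested on simulated data. Totals of 6117343 to 30544847 counts set the precision, and intervals cover the spread between samples.

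Members and gene lists were chosen with earlier results of these data known. Genes named were protein-coding, had a mean of 1 or more on the log2 CPM scale, and kept their sign at all 4 time points in each depot: the 8 with the largest smaller change for each opposite pattern, 6 for each alike direction, 3 for each other class and for the largest interactions of each sign, and, without those conditions, up to 3 list members with the smallest interaction p, and *Nampt*. Other list members were named after their values were seen, and a few genes that the rule names are not reported here. Promoter sequences came from RefSeq on GRCm38.p6. Alternatives were RLE factors, library size alone, TMM without mitochondrial genes, 2 filters, DESeq2 1.42.0, limma-voom (limma 3.58.1), other time terms, replicate blocks, other thresholds, marker covariates and leaving out each replicate number. A pair more, without 12 libraries and with adipocyte core scaling, were chosen after seeing the data.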

Additional observations from a re-analysis of the deposited data

Results flagged for a closer look

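A sample was set apart within its group of 4 in 21 of 208 groups given Dixon's test, of library totals, marker sums and *Nampt*. Chance flags about 1 in 20 groups. For marker sums of other tissue, skeletal muscle markers reached 1280 CPM in 1 WT BAT sample at ZT 10 (nearest other 250.3), 780.3 CPM at ZT 6 (nearest 215.8) and 127.7 CPM at ZT 22 (nearest 90.5), 647.5 CPM in FANKO BAT at ZT 6 (nearest 64.44) and 1166 CPM at ZT 22 (nearest 92.08), and 147.1 CPM in WT eWAT at ZT 22 (nearest 86). Epididymis markers stood at 46.81 CPM in 1 FANKO eWAT sample at ZT 10 (nearest 6.107) and 394.5 CPM at ZT 18 (nearest 58.89). Nerve markers stood at 79.43 CPM in FANKO eWAT at ZT 18 (nearest 60.74), and mesothelium markers at 467 CPM in WT eWAT at ZT 18 (nearest 295).

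For immune, vascular and adipocyte markers, the B cell sum was 2524 CPM in 1 FANKO BAT sample at ZT 10 (nearest 508.1), the T and NK cell sum 26.8 CPM in WT eWAT at ZT 6 (nearest 16.45) and the macrophage sum 265.1 CPM in WT BAT at ZT 22 (nearest 189.8). The endothelial sum was 813 CPM in WT eWAT at ZT 10 (nearest 862.8) and 688.8 CPM in FANKO eWAT at ZT 6 (nearest 860). In that FANKO group the progenitor sum was 582.5 CPM (nearest 439.7) and the brown adipocyte sum 661.2 CPM (nearest 746.8). All of these flags in FANKO eWAT at ZT 6 named the same sample, the replicate numbered 3. The brown adipocyte sum was 8738 CPM in WT BAT at ZT 22 (nearest 10080), and the adipocyte core sum 25380 CPM (nearest 21220). One library of WT eWAT at ZT 10 held 10600000 counts (nearest 15100000). *Nampt* was at 558.5 CPM in 1 WT BAT sample at ZT 6 (nearest 490.1).

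The interaction term itself tests whether the genotype effect differs between depots, and it passed for 12961 genes. Among the named genes that fell in BAT and rose in eWAT it was -3.41 for *Gpd2*, -4.30 for *Acsm3*, -4.04 for *Cpt1b*, -2.98 for *Pdk4*, -4.39 for *Cidea*, -2.94 for *Hadhb*, -2.68 for *Slc25a33*, -3.06 for *Fuom* and -4.13 for *Chchd10* on the log2 scale. Among those that rose in BAT and fell in eWAT it was 5.43 for *C6*, 4.42 for *Wfdc21*, 4.12 for *Emp1*, 4.93 for *Sncg*, 3.52 for *Plagl1*, 4.40 for *Cxcl13*, 4.34 for *Cilp* and 6.45 for *Ptprf*. For genes that moved one way in both depots it was -3.53 for *Phospho1*, -2.72 for *Lctl*, -2.39 for *Sorcs2*, -2.99 for *Il17re*, -2.88 for *Car3*, -2.74 for *Zfp185*, 1.58 for *Hmcn2*, 0.93 for *Lrg1* and 0.88 for *Col23a1*. The fitted values of 8.61 for *Apol9a*, 7.37 for *Slfn4*, 7.05 for *Apol9b*, 8.64 for *Alox15* and 8.29 for *Slpi* rest on few or no counts in WT BAT, depend on the prior count and are no bounds.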

How the results depend on the processing

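With library size alone, 13624 interactions were positive and 1568 negative, 5598 genes changed in opposite directions, of which 404 fell and 5194 rose in BAT, and 459 fell alike. With adipocyte core scaling, chosen after seeing the data, 13411 interactions were positive and 1636 negative, 1341 genes changed in opposite directions, of which 320 fell in BAT, and 2556 changed alike, 2503 up and 53 down. Asking for 1.5-fold in each depot left 1100 genes in opposite directions (391 and 709), and a 2-fold bound gave 1094 that fell alike. The time-dependent interaction was called for 23 to 144 genes without any 1 replicate number, 23 without number 2. Sign changes of named interactions were counted where the main or the alternative fit called the interaction. Those counted came with library size alone and with adipocyte core scaling, to 0.72 and 0.69 for *Tmie*, 0.78 and 0.75 for *Reep6*, 0.81 and 0.76 for *Kcp*, 0.69 and 0.67 for *Tmem178b*, 0.65 and 0.62 for *Timp4*, 0.69 and 0.68 for *Sh3pxd2a*, 0.064 and 0.045 for *Kdr*, and 0.18 and 0.17 for *Tie1*. Uncalled interactions near 0 also changed sign in other fits. *Tmie*, for example, changed by 2.51 in BAT and 2.31 in eWAT without replicate 3. These scalings differ from TMM by construction in where they set the centre of all genes; why the centre differs was not tested. For the 156 named genes, 2431 values under an alternative kept their side of the threshold, and their direction where called. A call was lost by 18 and gained by 31. Another 16 changed sign where the main or the alternative fit called the interaction. Sign changes between fits that both missed the threshold are among the 2431. Without each replicate number in turn, 11521 to 12002 interactions, 2764 to 3268 genes in opposite directions and 1070 to 1236 alike were called. With replicate numbers 1 to 4 as a block, 13050 interactions were called, 3783 genes changed in opposite directions and 1472 alike; with equal numbers across depots as a block, 13036 interactions were called. The numbers were not taken to pair samples, since the labels give no pairing. Deviations of equal-numbered BAT and eWAT samples correlated above 0.1 in 18 of 32 pairs (-0.214 to 0.45), which cannot decide whether they were paired. Of 32 BAT samples, 19 correlated best with their own number, where 1 in 4 would without pairing. This points to pairing by number in the data, which the labels do not state. Low counts limit C6, Apol9a, Slfn4 and similar genes in WT BAT, where ratios rest on few reads.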
